A study of Arabidopsis thaliana with 39 samples.

Results

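These are the 60 Arabidopsis genes whose root transcripts stood highest at 3 h after transfer, when set against both the start and 9 h. They were taken from 8234 array rows that name exactly 1 gene and have a mean level of at least 3 over all arrays, out of 16746 rows with 1 gene and 28501 rows in all. For each row the mean of the 12 arrays at 3 h was compared with the mean of the 3 arrays at time 0 and with the mean of the 12 arrays at 9 h, and the smaller of the 2 differences was the score. The 60 highest scores, from 1.17 for CYP71B26 down to 0.457 for AT2G44380, chose the genes. The levels at time 0, 3 h and 9 h are therefore given as a description, with no test. Differences between media at 1 time were tested. The rule weighs the 4 media equally and does not set which is higher, but a gene high at 3 h in only some media can enter through them. Run again without the arrays of 1 medium, a setting added after seeing the data, the rule kept 48 of the 60 genes without those lacking phosphate, 44 without those lacking iron, 44 without those lacking both and 52 without those in full medium, so the choice is not fully separate from the media.

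All groups are roots of Columbia-0 wild-type plants, 10 days old and grown with 1 mM phosphate, with 3 arrays in each of 13 groups. Roots were taken after 3, 6 and 9 h without phosphate, without iron, without both, or in full medium, and from plants in full medium at time 0. The treatment description names a transfer only for the deprived plants. The sample titles give hours after the start and no hour of day, so time after transfer and time of day cannot be told apart. The labels number the replicates 1 to 3 and give no sign of whether these are independent cultures, and the p-values then cover only the spread between samples, part of which may be technical. Levels are the deposited values, taken as log2, so that 1 unit is a doubling. In whole roots fewer cells of a type and less RNA per cell cannot be told apart.

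Plants respond to handling, wounding and contact with new medium within hours. A class of such responses runs through calcium signals, receptor kinases and mitogen-activated protein kinases to WRKY transcription factors, and overlaps with the response to microbes. Responses to phosphate and iron supply are linked to each other and to nitrate supply through transcription factors of the GARP group.

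The 60 genes are all protein coding, and 49 of them carry no name besides their locus. By known family they fall into 15 genes of defence and signalling, 9 enzymes, 6 genes of cell wall and phenylpropanoid metabolism, 5 transporters, 5 photosynthesis genes, 3 chaperones, 2 regulators of transcription and development and 15 others. These classes were drawn up after the genes were known. At 3 h the 60 genes were above time 0 by a median log2 difference of 0.84 (range 0.46 to 2.37, or 1.37-fold to 5.17-fold), and above 9 h by a median of 0.62 (0.46 to 1.61, or 1.37-fold to 3.04-fold). The medians over all 8234 eligible rows were 0.02 and -0.02. Scores near the limit were close together. The last genes inside, AT1G49450, ATC and AT2G44380, scored 0.463, 0.458 and 0.457, and the first outside, AT3G51660, AT2G33550 and AT4G24130, scored 0.457, 0.457 and 0.456.

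**Figure D1:**
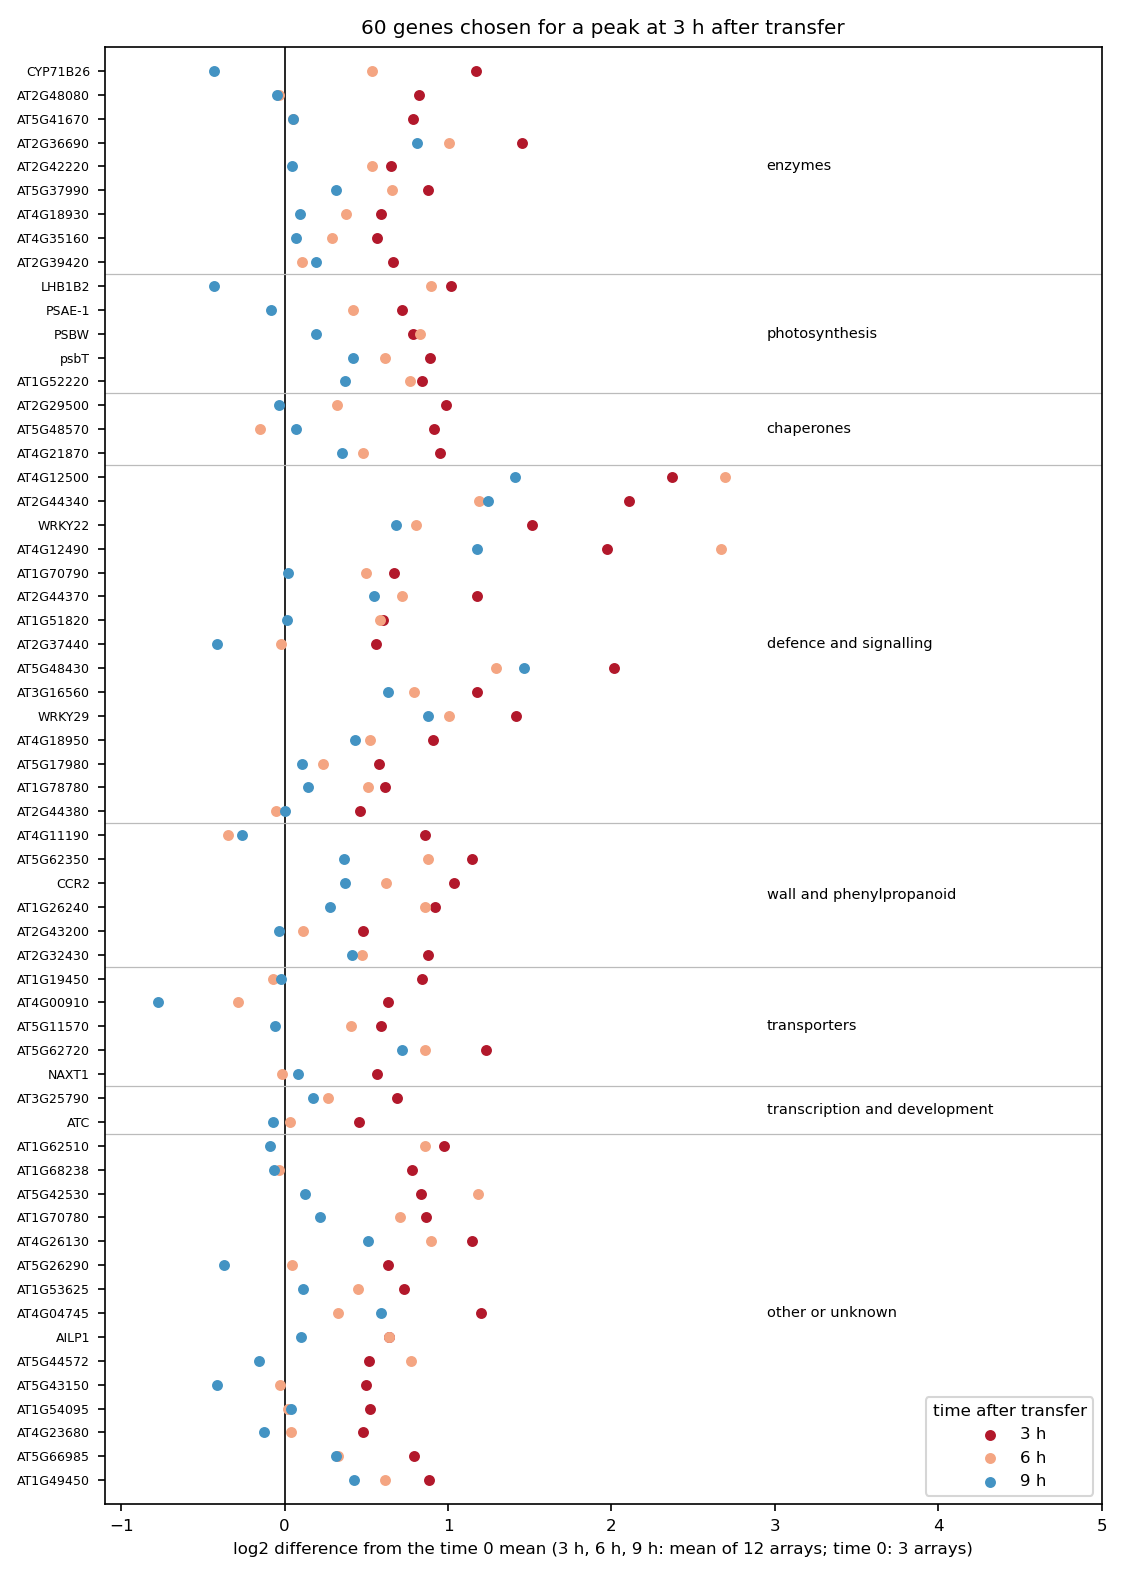
Mean log2 difference from time 0 of each of the 60 genes at 3 h, 6 h and 9 h (12 arrays each, against 3 arrays at time 0), with genes grouped by class. The 3 h points lie between 0.46 and 2.37, and the 9 h points of 18 genes lie below 0.

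The highest-scoring gene was CYP71B26 (AT3G26290), a cytochrome P450 monooxygenase. Its 12 arrays at 3 h had a lowest level of 4.03, a median of 4.86 and a highest of 5.38, against 3.34, 3.84 and 3.70 in the 3 arrays at time 0. At 9 h its lowest level was 2.68, its median 3.33 and its highest 3.67. Every array at 3 h was above every array of both other times. The mean at 3 h was 2.25-fold that at time 0 and 3.04-fold that at 9 h.

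Separation of this kind was uncommon within the set. All arrays at 3 h lay above all arrays at time 0 for 17 of the 60 genes, against 1.64% of eligible rows, and above all arrays at 9 h for 4 genes, against 0.146% of eligible rows. For 3 genes, CYP71B26, AT1G70790 and AT5G26290, both held, and these were the only rows among the 8234 (0.0364%). The rule used these arrays, so nothing is read from those counts. AT1G70790, a C2-domain protein of the kind that binds membranes with calcium, had 4.21 to 4.91 at 3 h, 3.58 to 4.1 at time 0 and 3.62 to 4.09 at 9 h. AT5G26290, a TRAF-like protein, had 6.33 to 7.09 at 3 h, 5.84 to 6.13 at time 0 and 5.14 to 6.24 at 9 h. The fourth gene above all 9 h arrays was AT4G18930, a cyclic phosphodiesterase, whose lowest array at 3 h lay level with its highest at time 0, both at 6.43.

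The genes differed in how long the excess lasted. At 6 h the median gene had 58.9% of its 3 h difference over time 0 left, and 37 genes had at least 50% left. In 17 genes under 25% was left, and 10 stood below time 0. In 6 genes the mean at 6 h was above that at 3 h, so for these the highest of the 4 times was 6 h. By 9 h the median gene had 15.6% left, 18 genes were below time 0, and 12 were still at least 0.5 above it.

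**Figure D2:**
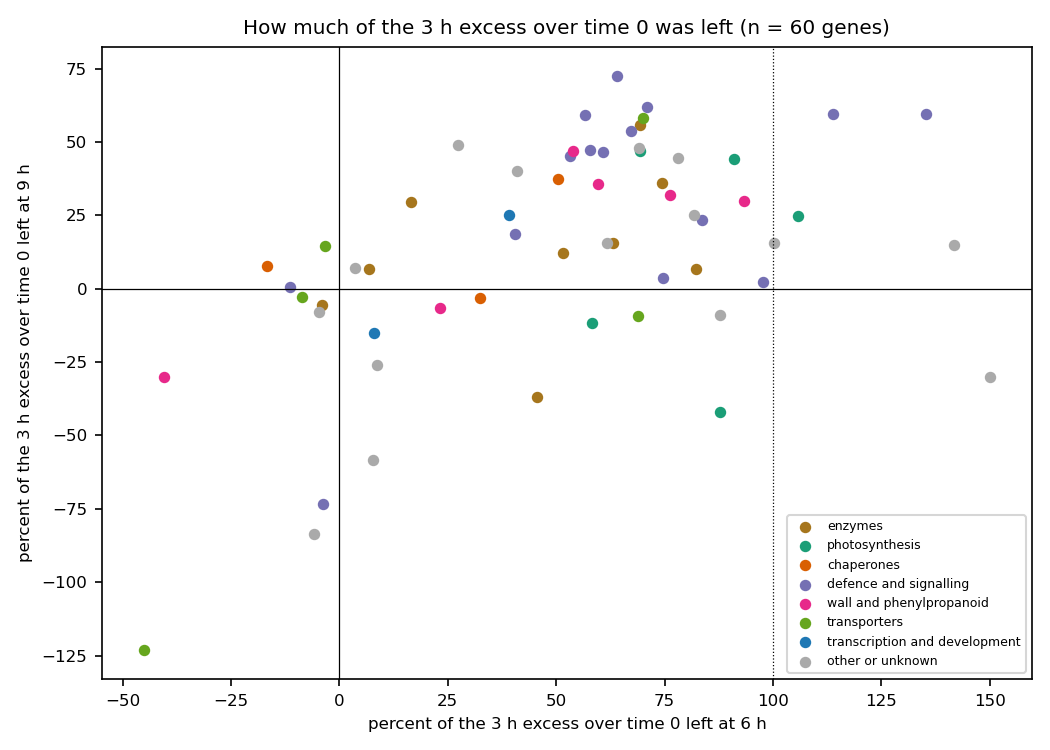
Percent of each gene's 3 h difference over time 0 that was left at 6 h (x axis) and at 9 h (y axis), 1 point per gene, coloured by class. Medians of the 60 genes are 58.9% at 6 h and 15.6% at 9 h, and points right of the dotted line were higher at 6 h than at 3 h.

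Defence and signalling genes made up the largest named class, whose share among the eligible rows was not computed. They included 8 of the 17 genes whose arrays at 3 h all exceeded time 0. Their median difference over time 0 was 1.18. Of these 15 genes, 12 had at least 50% of it left at 6 h, and 8 of the 12 genes still at least 0.5 above time 0 at 9 h belonged here. The class holds the transcription factors WRKY22 (AT4G01250) and WRKY29 (AT4G23550), which act in the pathway started by bacterial flagellin. WRKY22 had 4.30, 5.09 and 5.93 as lowest, median and highest level at 3 h, against 3.58, 3.58 and 3.49 at time 0. Its 9 h arrays ran from 3.91 to 4.40, so they too lay above time 0 but overlapped with 3 h in their upper end. WRKY29 averaged 5.87 ± 0.46 at time 0 (SD, n = 3), 7.29 ± 0.47 at 3 h, 6.87 ± 0.50 at 6 h and 6.75 ± 0.31 at 9 h (SD, n = 12 each).

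AT2G44340, which encodes a VQ-motif protein of the group that partners WRKY factors, had 4.59, 5.98 and 7.52 as lowest, median and highest level at 3 h, against 4.07, 4.21 and 3.83 at time 0. AT5G48430, an aspartyl protease family member, had 4.32, 5.21 and 6.67 as lowest, median and highest level at 3 h, against 2.96, 4.05 and 2.91 at time 0. Both genes were separate from time 0 in every array at 3 h, by mean log2 differences of 2.11 and 2.02, and at 9 h they were still above it by 1.24 and 1.47. Besides the lipid transfer protein genes AT4G12500 and AT4G12490, the rest of the class were the C2-domain proteins AT1G70790 and AT5G17980, the C1-domain proteins AT2G44370 and AT2G44380, the receptor kinase AT1G51820 with leucine-rich repeats, the Raf-like kinase AT4G18950, the protein phosphatase 2C AT3G16560, the inositol polyphosphate 5-phosphatase AT2G37440 and the pathogenesis-related family protein AT1G78780. Of these, AT2G37440 was below time 0 at both later times, with means of 5.43 at time 0, 5.99 at 3 h, 5.40 at 6 h and 5.01 at 9 h.

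The largest difference of the 60 belonged to AT4G12500, a lipid transfer protein family gene, and it was accompanied by its close relative AT4G12490. AT4G12500 had 2.27, 3.24 and 6.30 as lowest, median and highest level at 3 h, against 0.91, 2.11 and 1.20 at time 0. The mean difference of 2.37 was raised by the upper arrays, though the lowest at 3 h, 2.27, also exceeded the highest at time 0, 2.11. Levels of 6.30, 5.83 and 5.18, all of replicate number 3, and 5.06 of replicate number 2 stood well above the others. AT4G12490 had 1.32, 3.29 and 7.15 at 3 h, which overlaps its 1.12 to 2.35 at time 0. Both were higher at 6 h than at 3 h, with 114% and 135% of the 3 h difference. The pair lies with 1 gene between in RefSeq order and is similar in sequence, and the array may not tell them apart, so they are uncertain as separate measurements. The same holds for the adjacent C1-domain genes AT2G44370 and AT2G44380. With AT2G44340 near that pair, and with AT1G70780 near AT1G70790 and AT4G18930 near AT4G18950, 9 of the 60 genes lie within 2 genes of another.

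The 9 enzymes had a median 3 h difference over time 0 of 0.78. AT2G36690, a 2-oxoglutarate and iron dependent oxygenase, averaged 6.53 ± 0.41 at time 0 (SD, n = 3), 7.99 ± 0.60 at 3 h, 7.54 ± 0.38 at 6 h and 7.35 ± 0.40 at 9 h (SD, n = 12 each). All its arrays at 3 h exceeded those of time 0. AT5G41670, a 6-phosphogluconate dehydrogenase of the pentose phosphate pathway, was higher at 3 h alone, with means of 4.96, 5.75, 5.02 and 5.02 at 0, 3, 6 and 9 h. AT2G48080, also a 2-oxoglutarate and iron dependent oxygenase, was likewise higher at 3 h alone, with means of 4.02, 4.84, 3.98 and 3.97. The others were the SABATH methyltransferase AT5G37990, the O-methyltransferase AT4G35160, the hydrolase AT2G39420, the rhodanese-like AT2G42220 and AT4G18930.

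Among the 6 wall and phenylpropanoid genes, CCR2 (AT1G80820), a cinnamoyl-CoA reductase of lignin-type phenolics, averaged 3.63 at time 0, 4.67 at 3 h, 4.25 at 6 h and 4.0 at 9 h. AT5G62350, an inhibitor of invertase or pectin methylesterase, had 4.27, 5.06 and 5.43 as lowest, median and highest level at 3 h, against 3.67, 3.90 and 3.91 at time 0, with no overlap. AT4G11190, a dirigent protein, had means of 4.49, 5.34, 4.14 and 4.23 at 0, 3, 6 and 9 h, so it lay below time 0 at both later times. The galactosyltransferase AT2G32430 and the putative methyltransferase AT2G43200 differed from time 0 by 0.88 and 0.48 at 3 h. The extensin-like AT1G26240 was widely scattered, with 1.3 to 5.59 at time 0, 1.53 to 7.57 at 3 h and 1.32 to 6.16 at 9 h, so its mean difference of 0.92 is smaller than the spread within any of these times.

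Of the 5 transporters, 3 were below their time 0 mean by 9 h. AT4G00910, of the aluminium-activated malate transporter family, was the furthest below time 0 at 9 h of all 60, with means of 7.55, 8.18, 7.27 and 6.78 at 0, 3, 6 and 9 h. Its levels at 3 h were 7.22, 8.20 and 8.71 (lowest, median, highest), against 7.21, 7.85 and 7.60 at time 0 and 6.19, 6.89 and 7.51 at 9 h. An array without phosphate, at 7.22, reached into the range of both other times, and an array without both nutrients, at 7.80, into that of time 0. AT1G19450, an ERD6-like sugar transporter, was 0.84 above time 0 at 3 h and its means at 0, 3, 6 and 9 h were 5.44, 6.28, 5.36 and 5.41. NAXT1 (AT3G45650), which releases nitrate from root cells, had means of 7.48, 8.04, 7.46 and 7.56. AT5G11570 of the NRT1/PTR family and the HPP-family membrane protein AT5G62720 both had all arrays at 3 h above time 0.

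The 3 chaperone genes were the small heat shock proteins AT2G29500 and AT4G21870 and the FKBP-type isomerase AT5G48570, a co-chaperone known from heat acclimation. AT2G29500 at 3 h had 3.61, 3.18 and 3.19 without phosphate, 4.60, 6.26 and 3.28 without iron, 4.98, 4.55 and 3.29 without both, and 5.05, 3.35 and 3.3 in full medium (replicate numbers 1 to 3). At time 0 it had 3.3, 3.32 and 2.59. Only 5 of the 12 arrays at 3 h exceeded 4, and none of the 5 was of replicate number 3. AT5G48570 at 3 h had 3.84, 3.69, 4.39 and 3.71 in number 3 and 4.75, 5.78, 6.40 and 6.58 in number 1. The order is no phosphate, no iron, neither and full medium. AT2G29500 and AT5G48570 were lower in number 3 over all groups, not at 3 h alone, with differences of -0.65 and -1.16 from numbers 1 and 2. AT4G21870 differed from these 2 in being higher in number 3 than in the other numbers over all groups, by 0.49 (limma, adjusted p = 0.0322).

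**Figure D3:**
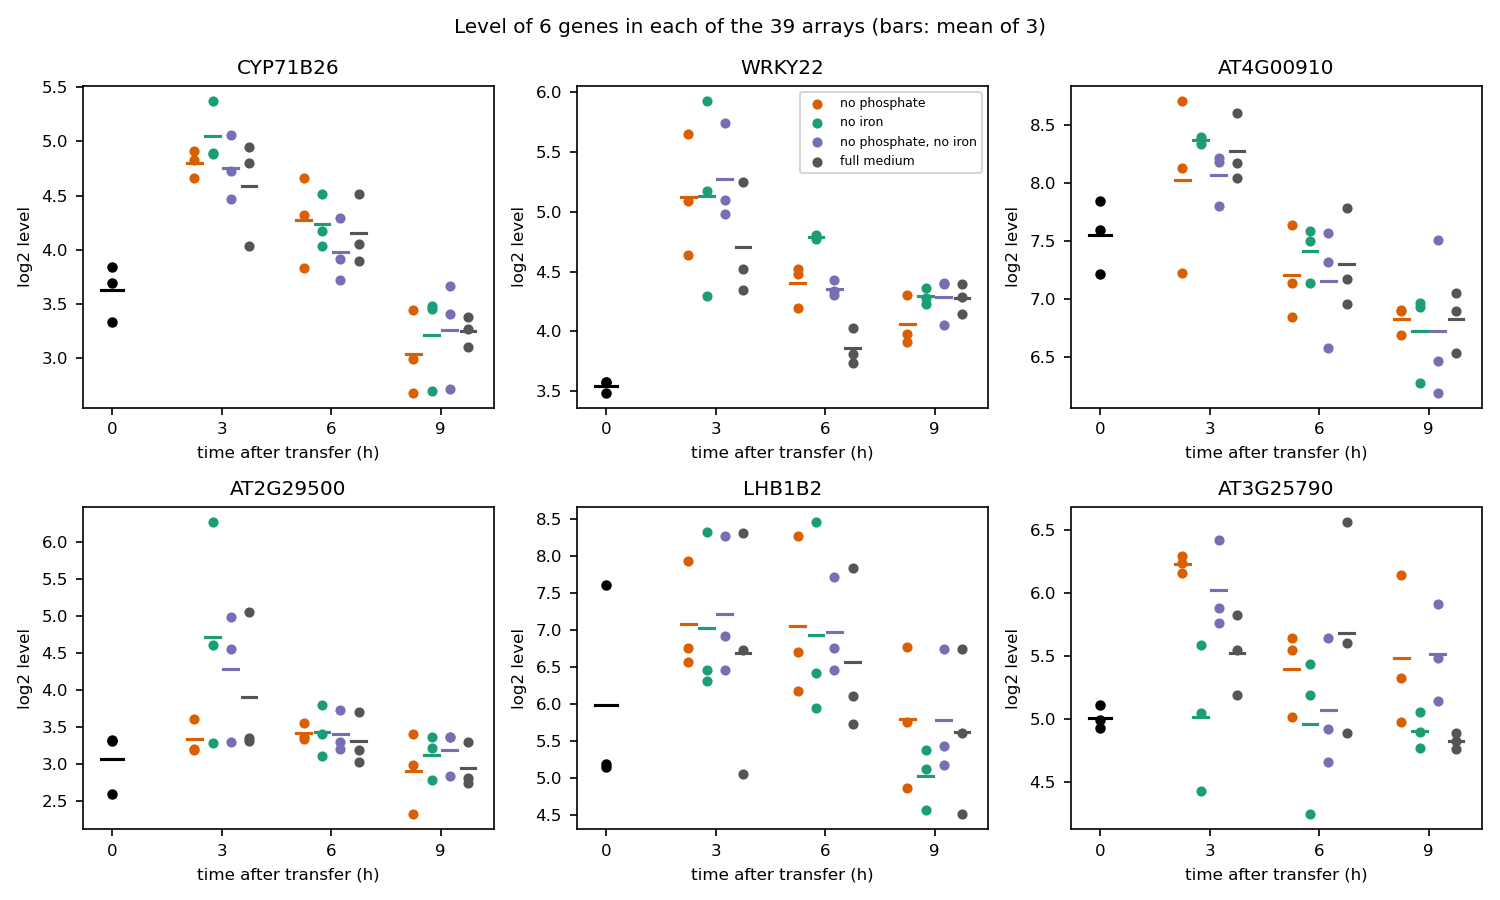
Log2 level of 6 of the genes in each of the 39 arrays against time after transfer (h), coloured by medium, with bars at the mean of 3 arrays. CYP71B26 at 3 h lies above all its arrays at time 0 and 9 h, while AT2G29500 exceeds 4 in 5 of 12 arrays at 3 h and LHB1B2 has 1 high array in nearly every group.

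The 5 photosynthesis genes encode a light-harvesting protein of photosystem II (LHB1B2, AT2G34420), subunits of photosystem I (PSAE-1, AT4G28750) and photosystem II (PSBW, AT2G30570, and the plastid-encoded psbT), and a protein of thylakoid curvature (AT1G52220). At 3 h they were above time 0 by 0.72 to 1.02, and all 5 had over 50% of that left at 6 h. None was separate from time 0 over all arrays. The 3 h mean of the class exceeded time 0 by 0.87 without phosphate, 0.85 without iron, 1.25 without both and 0.44 in full medium. It exceeded 9 h by 0.80, 1.17 and 0.91 in those deprived media and by 0.14 in full medium. Single arrays weighed on these values. In full medium the class mean at 3 h was 4.53, 5.80 and 7.44 in replicate numbers 1, 2 and 3. At time 0 it was 4.67, 4.84 and 6.96, and in full medium at 9 h 5.19, 4.81 and 7.36. Without iron it was 5.70, 5.68 and 7.62 at 3 h, against 4.72, 4.89 and 5.89 at 9 h.

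These genes differed between replicate numbers more than between times. LHB1B2 at 3 h had 7.93, 8.33, 8.27 and 8.31 in replicate number 3 (no phosphate, no iron, neither, full medium), and 5.06 to 6.92 in numbers 1 and 2. At time 0 it had 7.61 in number 3, against 5.20 and 5.16 in numbers 1 and 2. The mean of the 5 genes in number 3 was 6.96, 7.53, 7.46 and 6.71 at 0, 3, 6 and 9 h, against 4.67, 5.62, 5.77 and 5.09 in number 1 and 4.84, 5.87, 5.35 and 4.94 in number 2. The excess at 3 h over time 0 was present in each number, with its highest point at 6 h in number 1. All 5 genes were higher in number 3 than in numbers 1 and 2 over all groups, by 1.46 to 2.32 (limma, adjusted p of 4.31e-10 or lower). Of the 4 shoot markers listed, 2 had a row of their own, and both moved with them. RCA was higher in number 3 by 1.45 (limma, adjusted p = 5.12e-11) and LHCB4.1 by 1.40 (limma, adjusted p = 1.59e-11). The root markers with a row of their own, 3 of 18, were lower in number 3. Their differences were -0.15 for BGLU23, -0.45 for EXPA7 and -0.48 for EXPA18 (limma, adjusted p = 0.00787, 0.0108 and 0.0101). These comparisons of replicate numbers were added after the data were seen, and count same-numbered arrays as separate samples. With only 3 numbers, their p-values do not measure the spread between numbers. The summed log2 level of the 2 shoot markers ranged from 10.7 to 14.7 at time 0, 10.2 to 14.8 at 3 h, 9.97 to 15.1 at 6 h and 10.1 to 14.0 at 9 h, with means of 12.2, 12.6, 12.2 and 11.7. Their part in the 3 h excess of the photosynthesis genes was not tested.

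With the same limits on the p-values, 19 of the 60 genes differed between replicate number 3 and the other numbers (limma, adjusted p under 0.05). There were 17 higher in number 3, against 8.83% of all rows, and 2 lower, against 11.2% of all rows. All rows include those under the mean of 3 asked of members, and the share over eligible rows was not computed. The lower ones were AT2G29500, with a difference of -0.65, and AT5G48570, with -1.16. Outside photosynthesis the largest were AT5G42530, of unknown role, by 3.42, AT4G12490 by 2.20, AT2G42220 by 2.18 and AT4G12500 by 1.87. The course within each number is given as a description, since the arrays of all 3 numbers chose the genes. Both differences were above 0 for 57, 55 and 57 of the 60 genes in numbers 1, 2 and 3, and in all 3 numbers for 50 genes, against 6.50% of eligible rows, though the rule fixed this in the mean. The median 3 h difference over time 0 was 0.97, 0.71 and 0.78 in numbers 1, 2 and 3.

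**Figure D4:**
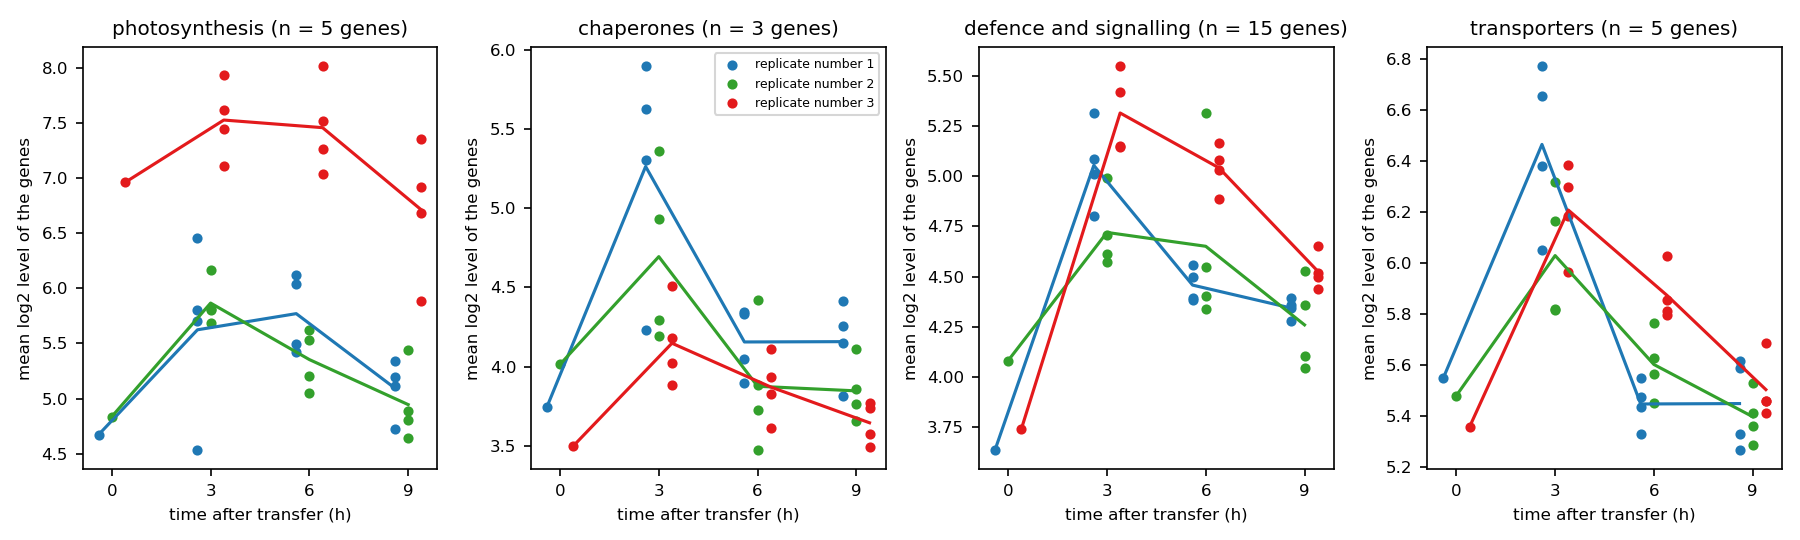
Mean log2 level of the genes of 4 classes in each array (points) against time after transfer (h), with replicate numbers 1, 2 and 3 offset and coloured, and lines through the mean of each number (1 array at time 0, 4 at each later time). Number 3 is above the others at all times for photosynthesis, and the mean of the 3 chaperones at 3 h is lower in number 3 than in numbers 1 and 2.

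The regulators were AT3G25790 (HHO1), a GARP-type factor of the group that links nitrate and phosphate signals in roots, and ATC (AT2G27550), a relative of the flowering repressor TERMINAL FLOWER 1. ATC averaged 7.46, 7.91, 7.49 and 7.39 at 0, 3, 6 and 9 h. The others with a family assignment were AT1G62510 of the seed storage and lipid transfer protein superfamily (5.17, 6.14, 6.03 and 5.08 at the 4 times), AILP1 (AT5G19140), the Bet v I relative AT4G23680, the WD40-repeat protein AT1G49450 and AT5G26290. The remaining 10 genes, AT1G68238, AT5G42530, AT1G70780, AT4G26130, AT1G53625, AT4G04745, AT5G44572, AT5G43150, AT1G54095 and AT5G66985, are given no role here. Of these, AT4G26130 had 7.16 to 7.95 at 3 h and 6.13 to 6.48 at time 0, which do not overlap.

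The study's question was what lack of phosphate, iron or both changes, and for these 60 genes no difference between media passed the test. The rule used these media in the mean, so the following counts are a description. The mean at 3 h was above time 0 and 9 h for 59 genes without phosphate, 59 without iron, 58 without both and 57 in full medium, and for 53 genes in all 4 media, against 5.68% of eligible rows. In none of 16 comparisons was a member called (limma, adjusted p under 0.05 over all rows). Over all 28501 rows the calls were 0.0246% for both absent against full medium at 3 h and for phosphate absent against present at 3 h, 0.00351% for iron absent against present at 3 h and for both absent at 9 h, 0.00702% for no phosphate at 9 h, 0.0351% for any difference among the 4 media at 3 h, and 0% in the other 10. So the members' count of 0 lies near that of the array as a whole.

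At an unadjusted p under 0.05, the single deprivations against full medium at 3 h gave 3 genes without phosphate (4.51% of all rows) and 0 without iron (3.32%), and the lack of both gave 2 genes (4.61%). At 6 h these were 4 genes (4.18%), 3 genes (3.77%) and 2 genes (2.98%), and at 9 h 0 genes (1.98%), 1 gene (2.37%) and 3 genes (3.83%). Phosphate absent against present at 3 h gave 6 genes (4.63%), iron absent against present 6 genes (5.22%), their interaction 2 genes (3.93%) and any difference among the media 5 genes (4.71%). Whether the deprivation effect differed between 3 h and 9 h gave 0 genes without phosphate, iron or both (2.39%, 2.30% and 2.57% of all rows).

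The gene with the lowest p was AT1G70780, of unknown role, for phosphate absent against present at 3 h. It had 8.13, 7.58 and 8.19 without phosphate and 8.11, 7.46 and 8.12 without both, against 7.66, 6.73 and 7.23 without iron and 7.60, 7.23 and 7.56 in full medium. The arrays without phosphate lay higher except for those of replicate number 2, which overlapped with the arrays that had it. The difference was 0.60 (SE 0.17, limma adjusted p = 0.561), and within replicate numbers 1, 2 and 3 it was 0.50, 0.54 and 0.76. At 9 h it also had the lowest p for both absent against full medium (0.56, SE 0.24, limma adjusted p = 1.00).

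AT3G25790, the GARP factor, was close behind. At 3 h it had 6.16, 6.29 and 6.24 without phosphate and 6.42, 5.88 and 5.76 without both, against 5.59, 5.05 and 4.43 without iron and 5.83, 5.55 and 5.19 in full medium. A single array with phosphate, at 5.83, reached into the range of the arrays without it. The difference was 0.85 (SE 0.24, limma adjusted p = 0.598), with 0.58, 0.79 and 1.19 within replicate numbers 1, 2 and 3. Its 3 h mean exceeded time 0 by 1.22 without phosphate and 1.01 without both, and by 0.01 without iron and 0.51 in full medium. These 3 h arrays also chose the gene, and most of its excess lay in the media without phosphate. Its phosphate difference at 3 h is thus not separate from the choice. At 9 h AT3G25790 had 6.15, 4.98 and 5.33 without phosphate, against 4.89, 4.77 and 4.83 in full medium, with no overlap. The difference was 0.66 (SE 0.34, limma adjusted p = 1.00), and the share of rows separated in this way was not computed. The family members HHO2 and HHO3, which were measured and are not among the 60, differed from time 0 by -0.15 and 0.10 at 3 h.

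WRKY22 had the lowest p for no iron against full medium at 6 h. Its levels were 4.78, 4.77 and 4.81 without iron, against 3.74, 3.81 and 4.03 in full medium, a difference of 0.93 (SE 0.26, limma adjusted p = 1.00). Without phosphate it had 4.48, 4.52 and 4.20 and without both 4.34, 4.43 and 4.31 at 6 h. All 9 deprived arrays thus lay above the 3 in full medium, and the share of rows separated in this way was not computed. At 9 h the media overlapped, with 3.91 to 4.40 over the 12 arrays.

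**Figure D5:**
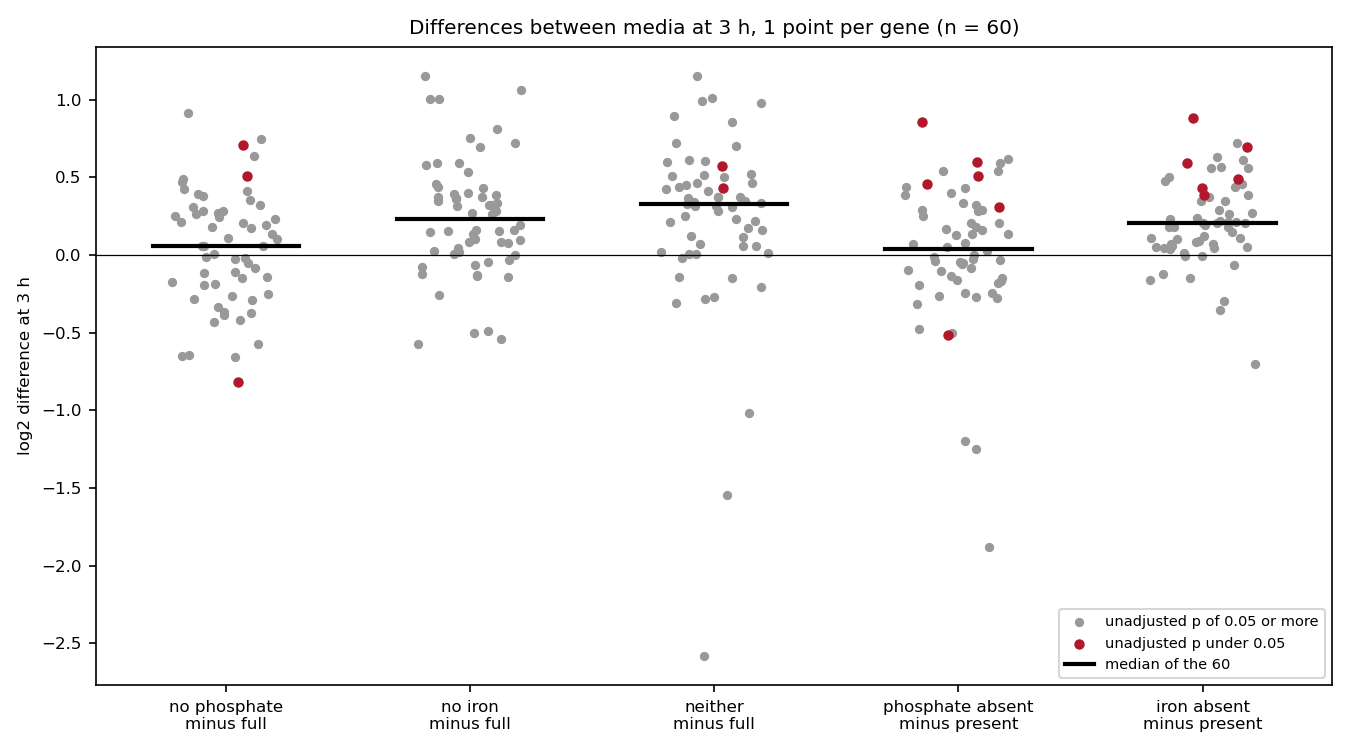
Log2 difference between media at 3 h for each of the 60 genes (points, spread sideways for legibility), with the median of the 60 as a bar and unadjusted p under 0.05 in red. The medians are 0.06, 0.23, 0.33, 0.04 and 0.20 from left to right, and no point passes after adjustment over all rows.

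The following counts over the 60 genes are a description with no test, since the arrays at 3 h also chose the genes, and 44 of the 60 remained in the set without the arrays lacking iron alone, as did 44 without those lacking both. Iron absent against present was above 0 for 51 of the 60 genes, with a median log2 difference of 0.20, while 52.6% of eligible rows were above 0 and their median was 0.01. Against full medium the median was 0.23 without iron (46 genes above 0) and 0.33 without both (50 genes), and 0.06 without phosphate (33 genes). Single arrays moved these values: the median without iron was 0.05, with 31 genes above 0, when no-iron replicate 3 was left out, 0.08 without no-iron replicate 1 and 0.10 without full-medium replicate 2. The median without both was 0.14 when replicate 3 of that medium was left out and 0.18 without full-medium replicate 2. The median without phosphate was -0.08, with 21 genes above 0, when full-medium replicate 2 was left out, -0.07 without no-phosphate replicate 3 and 0.13 without full-medium replicate 1. The highest of the 4 medium means at 3 h lay in medium without both for 27 genes, without iron for 23, without phosphate for 8 and in full medium for 2. Over the 8234 eligible rows these counts were 2115, 2099, 1928 and 2092. The 60 genes share the same 12 arrays, so these counts are not independent observations and carry no p. Within replicate numbers 1, 2 and 3 the iron median was 0.30, 0.14 and 0.14, with 49, 37 and 48 genes above 0. Leaving out single arrays gave medians of 0.12 to 0.28, with the lowest, 0.12 and 0.13, found without no-iron replicate 3 and without full-medium replicate 2. At 6 h and 9 h the medians without iron against full medium were 0.03 and 0.01.

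By class, the median for iron absent against present at 3 h was 0.57 over the 3 chaperones, 0.44 over the 5 photosynthesis genes, 0.21 over the 5 transporters, 0.21 over the 15 defence and signalling genes, 0.18 over the 9 enzymes, 0.17 over the 6 wall and phenylpropanoid genes, 0.11 over the 15 others and -0.07 over the 2 regulators. In replicate number 2 the photosynthesis genes had the opposite sign in 4 of 5 cases, with -0.28 for LHB1B2, -0.33 for PSAE-1, -0.32 for PSBW and -0.53 for psbT. The summed log2 level of the 2 shoot markers at 3 h averaged 12.6 without iron and 13.2 without both, against 12.3 without phosphate and 12.1 in full medium, and their part in the photosynthesis value was not tested. The lowest p for iron absent against present at 3 h belonged to the sugar transporter AT1G19450. It had 7.13, 6.09 and 5.86 without iron and 6.75, 7.21 and 6.38 without both, against 6.08, 5.51 and 5.80 without phosphate and 7.20, 5.49 and 5.81 in full medium. A full-medium array at 7.20 lay among the highest, and the difference was 0.59 (SE 0.22, limma adjusted p = 0.84). AT2G29500 was higher by 0.88 (SE 0.34, limma adjusted p = 0.84), and its values within replicate numbers 1, 2 and 3 were 0.46, 2.14 and 0.04, so 1 number carried most of it.

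In the comparisons left, the lowest p among the 60 was that of ATC for no phosphate at 3 h (-0.82, SE 0.35), AT2G39420 for no iron at 3 h (0.58, SE 0.29), AT5G62350 for both absent at 3 h (0.43, SE 0.19) and AT4G35160 for the interaction at 3 h (1.24, SE 0.54). At 6 h it was that of AT5G17980 without phosphate (0.72, SE 0.26) and AT1G54095 without both (0.84, SE 0.32), and at 9 h that of AT1G49450 without iron (0.63, SE 0.25). For the change of the effect between 3 h and 9 h it was that of WRKY22 without phosphate (0.63, SE 0.37), AT4G35160 without iron (-1.02, SE 0.54) and AT2G44380 without both (0.75, SE 0.44). All of these had a limma adjusted p near 1. In the test for any difference among the 4 media at 3 h, AT3G25790 came first (limma adjusted p = 0.821).

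The median pooled SD of these genes within a medium was 0.56 at 3 h, 0.41 at 6 h and 0.39 at 9 h, against 0.24, 0.24 and 0.21 over all eligible rows. The genes were chosen on their 3 h arrays, and 60 genes chosen by the same rule with the sign turned had 0.44, 0.36 and 0.35. For the 60 peaking genes the median range of the 4 medium means was 0.62, 0.50 and 0.46 at 3, 6 and 9 h. The extremes were again AT1G26240 and the lipid transfer genes: phosphate absent against present at 3 h was -1.88 for AT1G26240 (SE 1.13), -1.25 for AT4G12490 (SE 1.01) and -1.19 for AT4G12500 (SE 0.81), none with an unadjusted p under 0.05.

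Of 153 genes in 13 lists of related pathways, 24 had a row of their own, none was among the 60, and none was called between media. A mean at 3 h above both time 0 and 9 h was found for 30.0% of eligible rows. In the lists it was found for 2 of 5 touch and wounding genes, 1 of 2 nitrate genes, 1 of 3 phosphate genes and 0 of 4 iron genes. It was found for 0 of 2 early auxin genes, 0 of 2 cytokinin genes, 2 of 2 shoot markers and 0 of 3 root markers. The 1 clock gene with a row of its own, GI, had it too. No gene of the lists for jasmonate, heat and chaperones, low carbon and the cell cycle had such a row. Rows without a gene name or with several could not be searched for them, so the array may still hold these genes. The 2 touch genes were CML37 (1.55, 1.74 and 1.55 at 0, 3 and 9 h) and CML38 (1.48, 2.05 and 1.66), calmodulin-like genes whose levels lie below the mean of 3 asked of members. Of the others, ZAT10, a stress-induced zinc finger factor, differed by -0.61 between 3 h and time 0, and WRKY6 by -0.27 between 3 h and 9 h.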

How the data were processed

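The table the authors deposited gives 1 value per row and array, taken here as log2 from its range (0.141 to 12.8, array medians 3.34 to 3.45); the base is not stated, and folds depend on it. The submitters' processing notes name GCRMA and the Affymetrix programs Expression Console and Transcriptome Analysis Console, with no version named there. Per the labels' protocols, 100 ng of RNA was labelled with biotin.

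Rows were named through the platform annotation (758 rows name several genes, 10997 none), with symbols from RefSeq TAIR10.1 (16601 rows matched), used for names and order. Roles are general knowledge at family level, and do not come from the files. The members and lists were chosen with earlier results of these data known. The comparison of replicate numbers was added after the data were seen.

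All 39 arrays entered 1 fit with a mean per group (limma 3.58.1, R 4.3.3, lmFit and eBayes), adjusted by Benjamini-Hochberg over 28501 rows in each comparison and called under 0.05, and checked on simulated data. Genes named are the 12 highest scores, the lowest p in each comparison, up to 4 per class and the edges of the ranking; others were chosen after their values were seen. Alternatives were a replicate block, quantile normalization, a filter on dim rows, array weights, a fit of the compared groups alone, single arrays left out and changes of the rule. Deviations from the group means correlated over 0.1 in every same-numbered pair in 5 of 9 comparisons of a deprivation with full medium; the labels state no shared origin. No sequence is shown. The number of arrays limits the precision.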

Additional observations from a re-analysis of the deposited data

How the results depend on the processing

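In all 16 comparisons between media the count of called genes was 0, and leaving out each array in turn gave 0 to 0. It was also 0 with the replicate block (same-numbered arrays paired), with quantile normalization, with dim rows left out and with the compared groups alone. The exception was array weights for phosphate absent against present at 3 h, which called 1 gene, AT1G70780 (0.75, limma adjusted p = 0.0421), and 18 rows in all in place of 7; the cause was not tested. The set itself depended more on the arrays: leaving out replicate number 1, 2 or 3 from all groups kept 36, 41 and 43 of the 60 genes (36 to 43), and medians in place of means kept 37. Quantile normalization kept 57, a minimum mean of 4 kept 46 and no minimum 52. Leaving out a medium, an alternative added after seeing the data, kept 48 without the arrays lacking phosphate, 44 without those lacking iron, 44 without those lacking both and 52 without full medium. The median for iron absent against present at 3 h ran from 0.12 to 0.28 with single arrays left out, with 44 to 52 genes above 0.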

Other observations

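Some rows without a gene name reached the same scores. Of 6964 such rows with a mean of at least 3, 81 reached the score of the last of the 60 genes, and the highest, transcript clusters 13400661 and 13485693, scored 1.27 and 1.25, above CYP71B26. Cluster 13400661 had means of 3.82, 5.09, 5.08 and 3.67 at 0, 3, 6 and 9 h. The 60 genes came from 8234 rows with 1 gene by the same score, so these counts describe the ranking only. None of the 443 rows with several genes reached the score of the last gene.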
